A study of Drosophila melanogaster with 15 samples.

Results

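The DNA replication genes are 37 genes of Drosophila melanogaster that were listed by name for the proteins they encode, which start replication forks, move them and complete the new strands. Of the 37, 36 have an identifier in the deposited counts and 35 passed the filter on low counts (at least 1 read in 6 of the 15 libraries), out of 11424 genes tested. The 2 that could not be followed are both subunits of the origin recognition complex. Orc1 is not analysed here because its identifier in the annotation was not found among those counted, and lat, which encodes Orc3, was listed at 0 reads in all 15 libraries. In the annotation, every one of the 3315 exonic nucleotides of lat is shared with CG34315 on the same strand, so that no statement on lat was possible. The list was made by protein role, with earlier results of these data known.

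RNA was sequenced from Kc167 cells, an embryonic line with blood cell character, after RNA interference (RNAi) with dsRNA. Cells received dsRNA against the histone variant H2A.V (gene His2Av), against DOM-A or DOM-B, the splice isoforms of the ATP-dependent remodeler DOMINO, or against TIP60, the acetyltransferase that works with DOM-A. CTRL cells received dsRNA against a sequence the cells lack, GFP in replicate 2 and GST in the others, and any effect of this choice cannot be told apart from that of the replicate. There were 3 biological replicates in each of the 5 groups, and every sample was mixed with D. virilis cells before RNA extraction, whose reads set the scale on which libraries were compared. All groups are a single cell line grown in bulk, and no allele or drug distinguishes them.

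Replication starts when the origin recognition complex binds DNA and, with Cdc6 and Cdt1, loads the ring-shaped MCM helicase. In S phase Cdc45 and the GINS complex join the ring and turn it into the active helicase. RPA covers the single strands, the RFC complex loads the sliding clamp PCNA that holds the polymerases on DNA, ribonucleotide reductase supplies deoxynucleotides, and nucleases, a ligase and a topoisomerase finish and untangle the strands while CAF-1 places new histones. Most of these genes are transcribed ahead of and during S phase under the control of E2F and its partners. Their level in a culture can therefore depend on how many cells are in cycle. In these bulk samples, fewer cells in S phase and less RNA per cell cannot be told apart.

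Reads on genes came to between 8662976 and 14679536 per library for D. melanogaster, with a median of 12642096, and to between 1766397 and 3037203 for D. virilis. After TIP60 RNAi the Tip60 mRNA was at 16.0% of CTRL. After H2A.V RNAi the His2Av mRNA was at 7.18% of CTRL, between 221 and 1930 normalized counts, so that 1 library kept more of it than the other 2. In the DOM-A, DOM-B and TIP60 groups His2Av was at 64.8%, 85.1% and 65.2% of CTRL. Tip60 was at 124%, 78.5% and 66.4% in the DOM-A, DOM-B and H2A.V groups. Counts for dom pool its isoforms and give no check of the DOM-A and DOM-B labels. Between replicates, counts differed by more than counting error in every group, so that standard errors (SE) derived from the test statistic are given.

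All 35 genes were detected in every CTRL library, and their levels spanned a wide range. Levels are compared between genes as normalized counts (reads divided by the D. virilis size factor) per kb of annotated exon. The highest level in CTRL was that of RnrS, the small subunit of ribonucleotide reductase, with 9239 ± 1880 per kb (SD, n = 3). PCNA followed with 4554 ± 772, RPA3 with 4548 ± 1161 and RpA-70 with 4121 ± 565, and these 3 did not differ beyond their spread. The lowest were Cdc6 with 92.5 ± 8.21 per kb, the GINS subunit Psf3 with 145 ± 18.2, and Orc5 with 193 ± 6.36. Subunits of a complex were close in some cases and not in others. The 6 MCM genes lay between 730 and 1023 per kb, while the 4 origin recognition genes lay between 193 and 504 and the licensing genes between 92.5 (Cdc6) and 2309 (geminin).

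**Figure D1:**
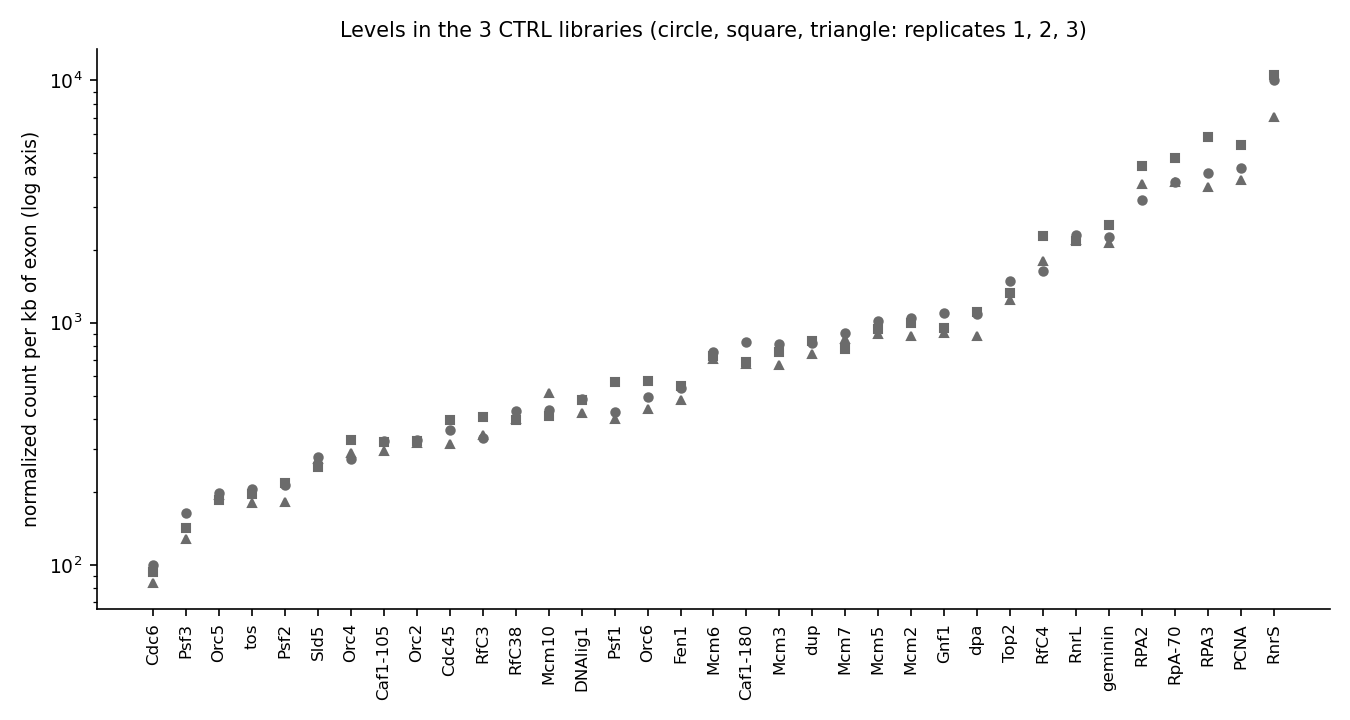
Normalized counts per kb of exon (log axis) of the 35 DNA replication genes in the 3 CTRL libraries, ordered by their mean, with 1 symbol for each replicate. Means run from 92.5 for Cdc6 to 9239 for RnrS, and the 3 libraries of a gene lie close together compared with the range over genes.

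The comparison of each knock-down with CTRL asks which of these genes depend on the protein removed. After DOM-A RNAi 8 of 35 genes were lower and 0 were higher (edgeR quasi-likelihood test, adjusted p-value under 0.01), which is 22.9%. Over all genes tested 10.4% were lower and 8.96% higher. After TIP60 RNAi 10 of 35 genes (28.6%) were lower and 0 higher, against 8.43% lower and 4.88% higher over all genes. Depletion of DOM-B and of H2A.V gave few calls. After DOM-B RNAi 0 of 35 were called, against 2.74% higher and 2.33% lower over all genes, and after H2A.V RNAi 1 of 35 (2.86%) was lower, against 11.5% lower and 1.23% higher.

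The count of 0 after DOM-B RNAi is that of edgeR, and at an unadjusted p-value under 0.05 there were 8 genes higher and 1 lower of 35, where 15.4% of all genes were higher and 12.6% lower. DESeq2 called 4 genes in this comparison, 3 higher and 1 lower, against 6.43% higher and 5.69% lower over all genes. At the same unadjusted level 15 genes were lower and 0 higher after DOM-A RNAi, beside 21.5% and 21% of all genes. After TIP60 RNAi 26 were lower and 0 higher, beside 21.7% and 14.8%. After H2A.V RNAi 8 were lower and 2 higher, beside 30.7% and 6.33%. All 4 comparisons share the CTRL libraries.

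The direction over the whole list was described by the median log2 fold-change, set beside that of all genes tested. It was −0.28 after DOM-A RNAi, where all genes had a median of 0.03 and 28 of the 35 genes were below 0. It was −0.41 after TIP60 RNAi, where all genes had −0.04 and 33 of 35 were below 0. After DOM-B RNAi the median of −0.01 was near that of all genes, 0.06. After H2A.V RNAi the median was −0.14 and that of all genes −0.22.

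**Figure D2:**
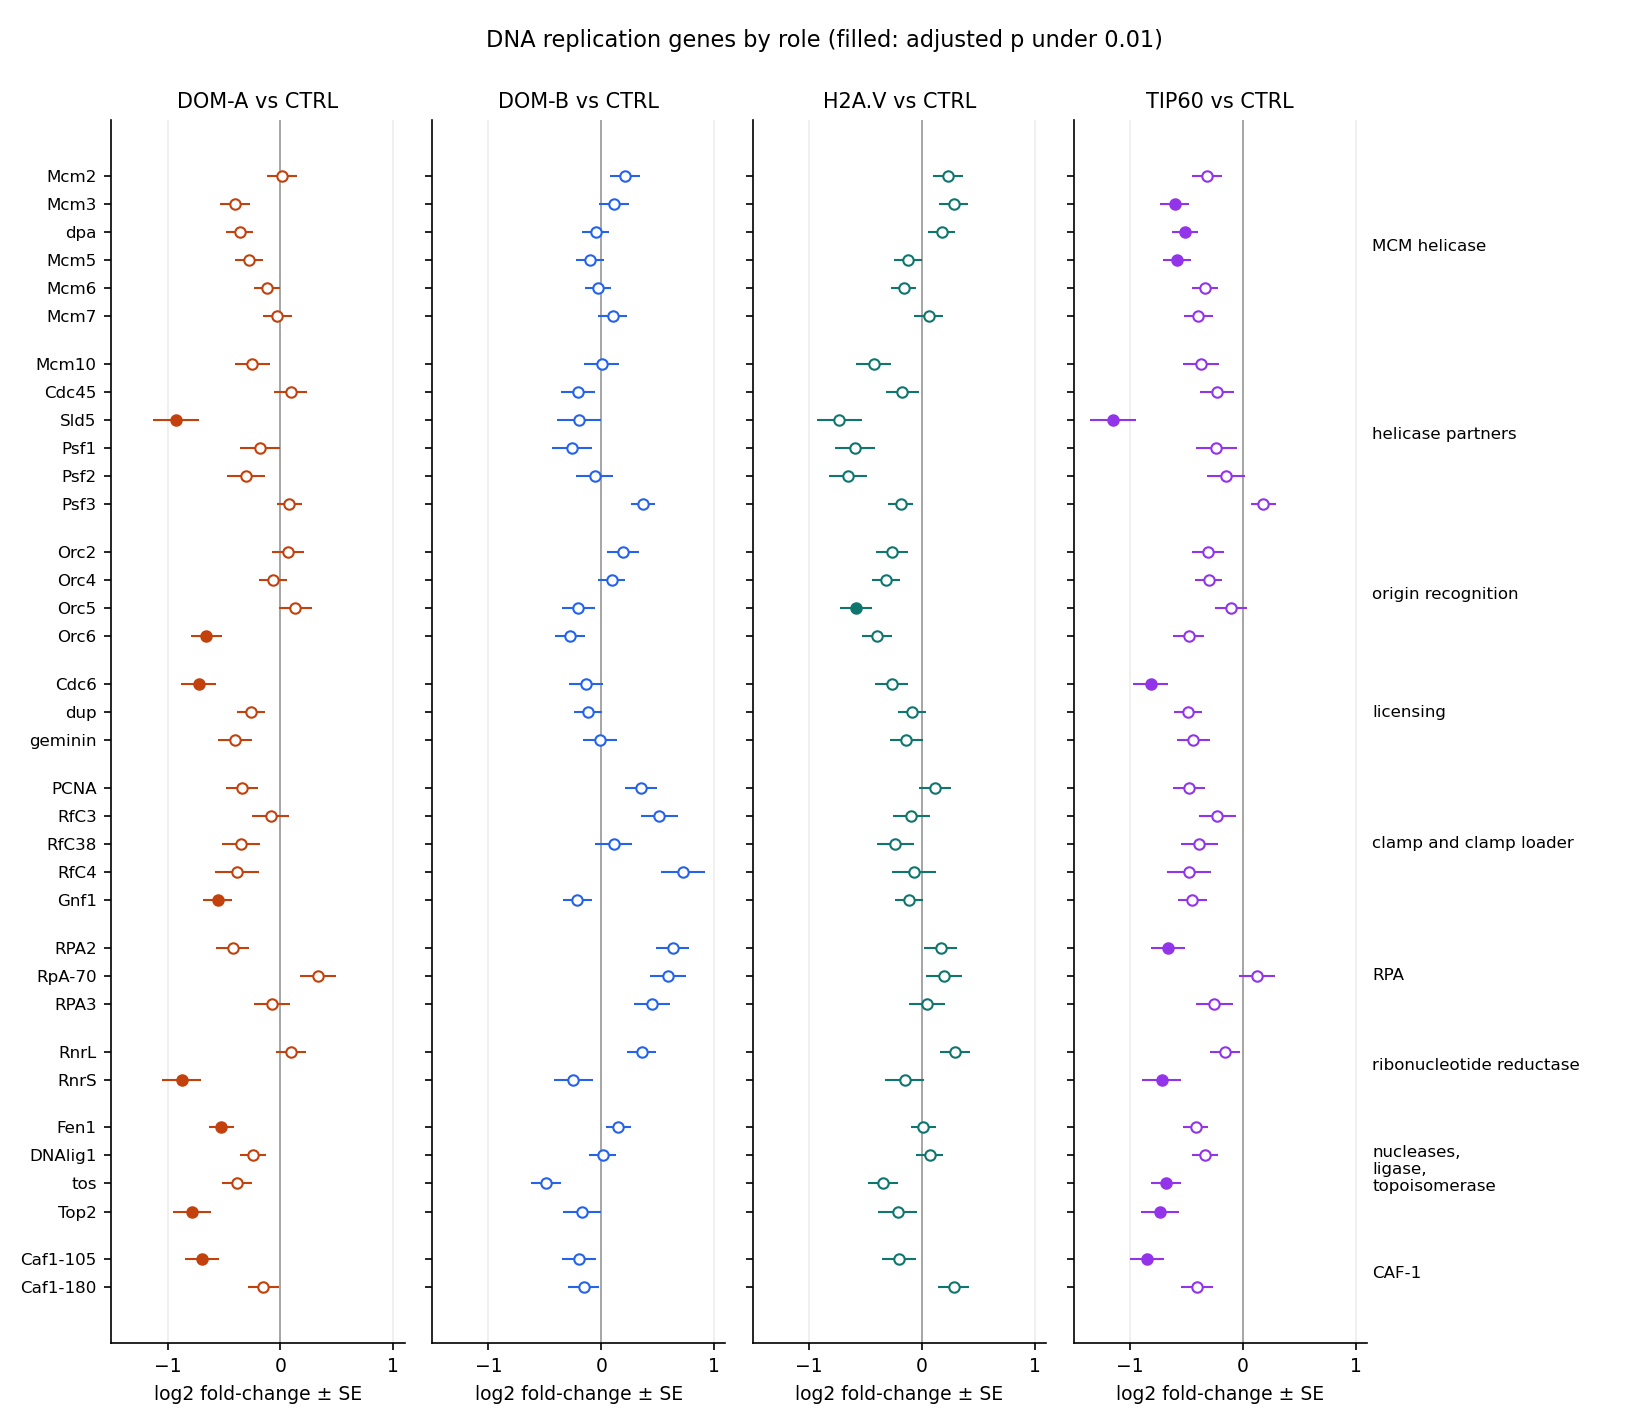
Log2 fold-changes against CTRL (points, with SE bars) of the 35 DNA replication genes, grouped by role, in 1 panel for each of the 4 knock-downs. Filled points passed an adjusted p-value of 0.01: 8 after DOM-A, 0 after DOM-B, 1 after H2A.V and 10 after TIP60 RNAi, all to the left of 0.

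Replicates did not show the difference equally. The median log2 difference of the 35 genes between DOM-A and CTRL libraries of the same replicate number was −0.38 in replicate 1, −0.15 in replicate 2 and −0.34 in replicate 3. That of all genes was 0, 0 and −0.01. Without DOM-A replicate 1 or without DOM-A replicate 3 the count of genes called after DOM-A RNAi was 0, without CTRL replicate 1 it was 1, and without CTRL replicate 2 it was 4. For TIP60 the medians were −0.38, −0.56 and −0.28 in replicates 1 to 3, beside −0.02, −0.10 and 0 over all genes. Its count fell to 2 without TIP60 replicate 1 or CTRL replicate 1, and to 3 without TIP60 replicate 2 or CTRL replicate 3. The log2 fold-changes themselves kept their sign in all of these fits for every gene called after DOM-A or TIP60 RNAi.

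Genes of 5 different roles were called after both DOM-A and TIP60 RNAi, namely Sld5, Cdc6, RnrS, Top2 and Caf1-105. Both comparisons use the same CTRL libraries, and the share of all genes called in both is not given here. The overlap is therefore not read as particular to these genes. A further 9 genes were called in 1 of the comparisons with CTRL, and 21 in none. In what follows the genes are taken in the order in which their proteins act, with normalized counts in replicates 1, 2 and 3.

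**Figure D3:**
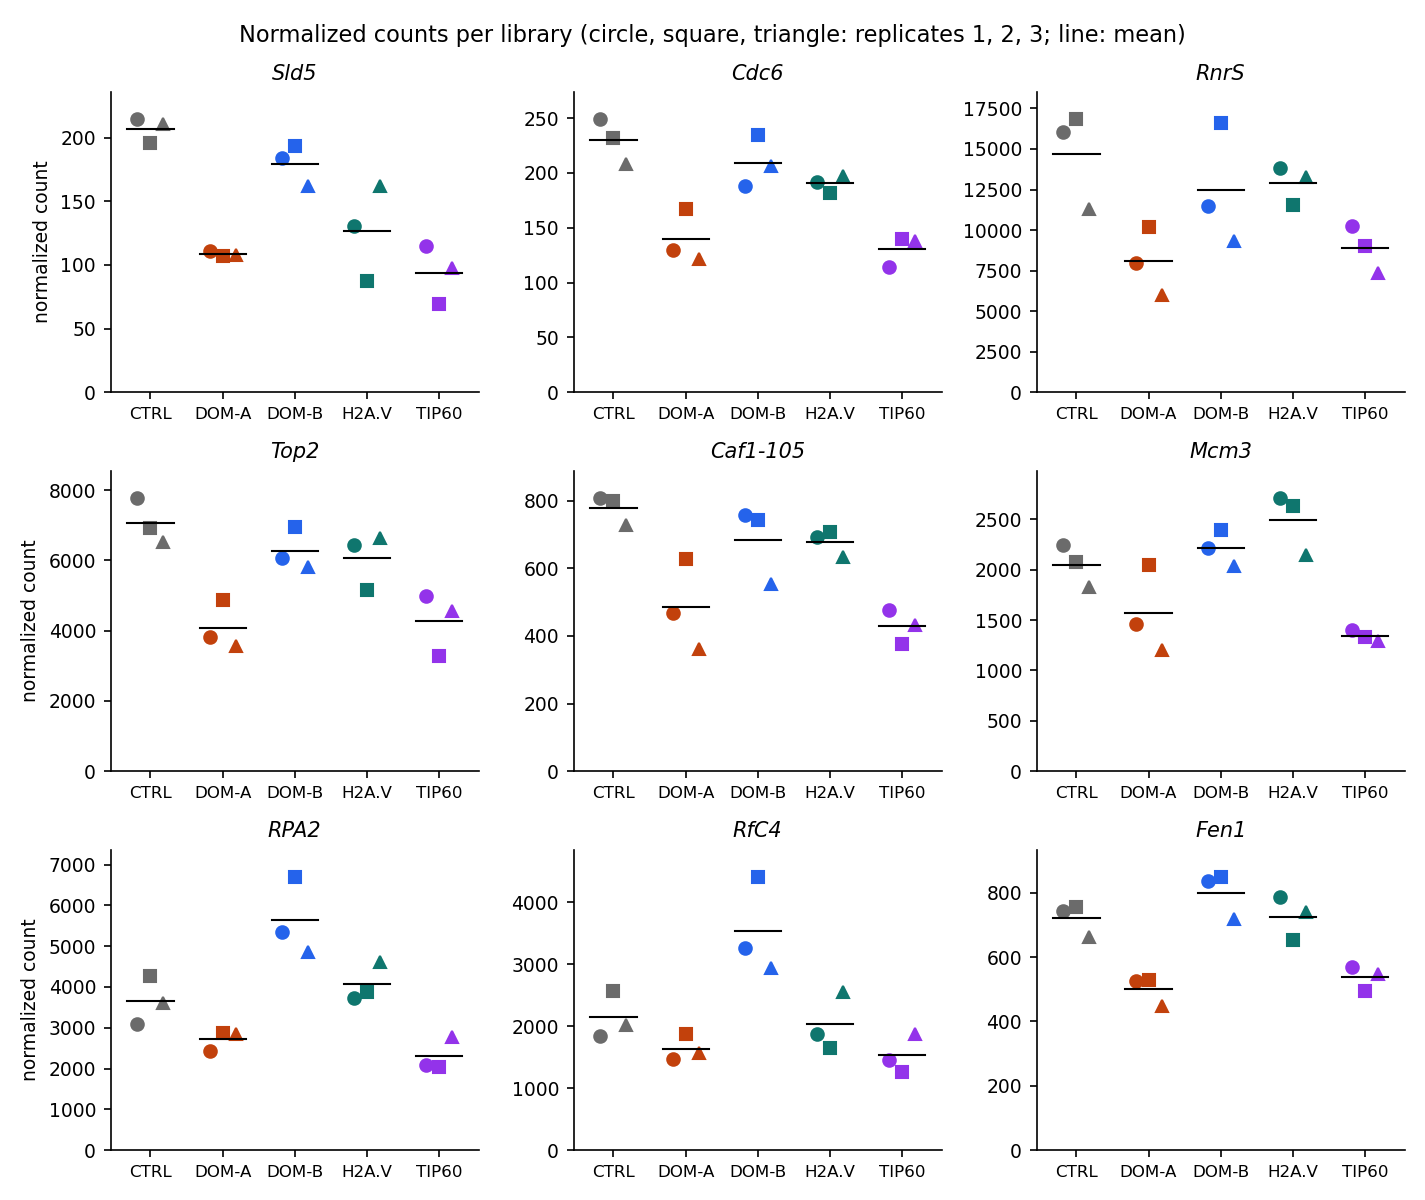
Normalized counts of 9 DNA replication genes in all 15 libraries, with symbols for the replicates and a line at the mean of each group (vertical axes start at 0). Sld5, Cdc6, RnrS, Top2 and Caf1-105 lie lower in all DOM-A and TIP60 libraries than in any CTRL library, while RPA2 and RfC4 lie highest after DOM-B RNAi.

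Of the origin recognition complex, 4 subunits could be followed. Orc6 fell after DOM-A RNAi. It was at 481, 560 and 427 normalized counts in CTRL and at 314, 350 and 267 after DOM-A RNAi, a log2 fold-change of −0.66 ± 0.14 (edgeR, adjusted p-value 0.00230), and the groups did not overlap. After TIP60 RNAi it was at 362, 360 and 326 (−0.48 ± 0.14, adjusted p-value 0.0190 by edgeR). Its annotated exons overlap those of Sting on the other strand by 55 nucleotides, and the counts used here take only reads of its own strand.

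Orc5 was the only member called after H2A.V RNAi. It was at 334, 314 and 328 normalized counts in CTRL and at 222, 179 and 251 after H2A.V RNAi, a log2 fold-change of −0.58 ± 0.14 (edgeR, adjusted p-value 0.00967). All 3 H2A.V libraries lay below all CTRL libraries. The call is close to the threshold and was kept in 3 of 8 alternative settings and in 1 of the 6 fits that leave out a library, with log2 fold-changes from −0.73 to −0.34 over all of them. After DOM-A RNAi Orc5 was at 386, 375 and 310, and it was not called. The median of the 4 subunits after H2A.V RNAi was −0.36 and all 4 were below the median of all genes, which were on the whole lower in this comparison.

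Cdc6, the loading factor that brings the MCM ring to the origin, fell after DOM-A and after TIP60 RNAi. It lay at 249, 232 and 208 normalized counts in CTRL, at 130, 167 and 121 after DOM-A RNAi and at 115, 139 and 138 after TIP60 RNAi. No library of either knock-down reached the lowest CTRL library. The log2 fold-changes were −0.73 ± 0.15 for DOM-A (edgeR, adjusted p-value 0.00256) and −0.82 ± 0.15 for TIP60 (edgeR, adjusted p-value 0.00167). After DOM-B RNAi it was at 188, 234 and 206, which overlaps CTRL.

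The other licensing genes are dup, which encodes Cdt1, and geminin, which encodes the inhibitor of Cdt1. Neither was called. The counts of dup were 2595, 2646 and 2338 in CTRL and 1677, 1753 and 1973 after TIP60 RNAi, without overlap. The log2 fold-changes of dup and geminin after TIP60 RNAi were −0.48 ± 0.13 and −0.44 ± 0.15, with adjusted p-values of 0.0125 and 0.0445 by edgeR, and after DOM-A RNAi geminin had −0.40 ± 0.15.

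The MCM helicase is the ring that unwinds the parental strands. Of its 6 subunits, 3 fell after TIP60 RNAi and 0 were called after DOM-A, DOM-B or H2A.V RNAi. Mcm3 was at 2245, 2079 and 1828 normalized counts in CTRL and at 1405, 1336 and 1288 after TIP60 RNAi (log2 fold-change −0.60 ± 0.13, edgeR adjusted p-value 0.00431). Mcm5 was at 2489, 2314 and 2209 in CTRL and at 1640, 1357 and 1669 after TIP60 RNAi (−0.58 ± 0.13, edgeR adjusted p-value 0.00411). The gene dpa, which encodes Mcm4, was at 3334, 3383 and 2705 in CTRL and at 2144, 2179 and 2232 after TIP60 RNAi (−0.51 ± 0.12, edgeR adjusted p-value 0.00652). In none of these 3 genes did a TIP60 library reach a CTRL library, and the remaining subunits Mcm2, Mcm6 and Mcm7 had log2 fold-changes from −0.39 to −0.32 without passing the test.

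After DOM-A RNAi the MCM genes showed a smaller and less even difference, with log2 fold-changes from −0.40 (Mcm3) to 0.02 (Mcm2). Mcm3 stood at 1457, 2045 and 1199 normalized counts, and its DOM-A replicate 2 lay within the CTRL range. Without that library Mcm3 was called after DOM-A RNAi as well. After H2A.V RNAi the median of the 6 MCM genes was 0.12 on the log2 scale and all 6 lay above the median of all genes, −0.22. Under TMM scaling on the D. melanogaster counts, which moved the median of all genes by 0.24 to 0.02, the median of the MCM genes was 0.37.

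Counts of Mcm7 depended on the strand. The antisense RNA asRNA:CR45871 overlaps 2003 of its 2451 exonic nucleotides, so that reads counted without regard to strand came to 200 to 594 per library, and reads of its own strand to 1033 to 2851. The counts of its own strand were used. Mcm2 and RpA-70 lie head to head on chromosome arm 3R, with 518 nucleotides between them in the annotation. Their log2 fold-changes after DOM-B RNAi were 0.21 ± 0.13 and 0.59 ± 0.16, and neither was called.

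The proteins that join the MCM ring include the GINS subunits Sld5, Psf1, Psf2 and Psf3, together with Cdc45 and Mcm10. Sld5 was the member with the largest log2 fold-change after TIP60 RNAi and after DOM-A RNAi. It lay at 214, 196 and 211 normalized counts in CTRL, at 111, 107 and 108 after DOM-A RNAi, at 115, 69.0 and 97.7 after TIP60 RNAi and at 130, 87.0 and 162 after H2A.V RNAi. After DOM-B RNAi it was at 184, 193 and 162, below CTRL in each replicate. Sld5 thus lay under every CTRL library in all knock-downs.

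The log2 fold-changes of Sld5 were −0.93 ± 0.20 for DOM-A (edgeR, adjusted p-value 0.00315) and −1.15 ± 0.20 for TIP60 (edgeR, adjusted p-value 0.00113). That for H2A.V, −0.73 ± 0.20, missed the threshold with an adjusted p-value of 0.0151 by edgeR. The TIP60 call was kept in all 8 alternative settings and all 6 fits without a library, and the DOM-A call in 8 and 1 of them. Sld5 is a short gene (773 exonic nucleotides, chromosome arm 3R, 26055657 to 26056547 on the minus strand of BDGP6.54) with 52 to 229 reads per library, the fewest of the genes called after TIP60 RNAi together with Cdc6 (81 to 253).

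The other GINS genes were not called after TIP60 RNAi, with log2 fold-changes of −0.24 ± 0.18 (Psf1), −0.15 ± 0.17 (Psf2) and 0.18 ± 0.11 (Psf3). After H2A.V RNAi Psf1 and Psf2 had values of −0.59 ± 0.18 and −0.66 ± 0.17, with adjusted p-values of 0.0266 and 0.0115 by edgeR. Psf2 was at 184, 189 and 158 normalized counts in CTRL and at 129, 94.9 and 111 after H2A.V RNAi, so that the groups did not overlap although the test was not passed. The lowest of these values were those of H2A.V replicate 2, in which the 35 genes had a median log2 difference of −0.29 from CTRL, against −0.12 and 0.03 in replicates 1 and 3. Over all genes the median was −0.27 in replicate 2, near that of the 35 genes, and −0.23 and −0.09 in replicates 1 and 3. Psf3 overlaps CG17841 on the other strand over 831 nucleotides.

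Among the clamp and the clamp loader, Gnf1, the large subunit of RFC, fell after DOM-A RNAi. It was at 3601, 3120 and 2979 normalized counts in CTRL and at 2067, 2585 and 1953 after DOM-A RNAi, a log2 fold-change of −0.56 ± 0.13 (edgeR, adjusted p-value 0.00458), with no overlap. The small subunits RfC3, RfC38 and RfC4 and PCNA were not called in any comparison with CTRL. All 5 genes were below 0 after DOM-A and after TIP60 RNAi, with medians of −0.35 and −0.45 on the log2 scale, and this held under all 3 other scalings. After DOM-B RNAi 4 of the 5 were above 0, and the median was 0.35.

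RfC4 had the largest log2 fold-change of all members after DOM-B RNAi. It lay at 1837, 2570 and 2017 normalized counts in CTRL and at 3253, 4399 and 2929 after DOM-B RNAi. The DOM-B libraries were all above CTRL (0.72 ± 0.20), and the adjusted p-value was 0.0260 by edgeR. DESeq2 called RfC4, and no other setting did.

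Of RPA, the complex that coats single-stranded DNA, 1 of 3 subunits fell after TIP60 RNAi. This was RPA2, which was at 3088, 4266 and 3595 normalized counts in CTRL and at 2096, 2031 and 2764 after TIP60 RNAi, a log2 fold-change of −0.66 ± 0.15 (edgeR, adjusted p-value 0.00527). The large subunit RpA-70 was at 8101, 10191 and 8103 in CTRL and at 9205, 7745 and 12115 after TIP60 RNAi, which overlaps (0.12 ± 0.16), and RPA3 had −0.25 ± 0.16.

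After DOM-B RNAi all 3 RPA genes had values above 0, and none was called. RPA2 was at 5346, 6687 and 4852 normalized counts, above every CTRL library (0.63 ± 0.15, adjusted p-value 0.0127 by edgeR). RpA-70 was at 12894, 14239 and 12586, likewise without overlap with CTRL (0.59 ± 0.16, adjusted p-value 0.0255 by edgeR). RPA2 was called higher in 4 of 8 alternative settings, among them DESeq2 and total D. virilis counts.

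Ribonucleotide reductase consists of RnrL, the large subunit, and RnrS. RnrS fell after DOM-A and after TIP60 RNAi, and RnrL was not called. RnrS was at 16029, 16832 and 11291 normalized counts in CTRL, at 7965, 10191 and 6023 after DOM-A RNAi and at 10225, 9043 and 7356 after TIP60 RNAi. All knock-down libraries of both lay below the lowest CTRL library, replicate 3. The log2 fold-changes were −0.88 ± 0.17 (edgeR, adjusted p-value 0.00168) and −0.72 ± 0.17 (edgeR, adjusted p-value 0.00787). RnrL had 0.09 ± 0.13 after DOM-A and −0.16 ± 0.13 after TIP60 RNAi, and the difference between the subunits was not tested. After H2A.V RNAi RnrL had 0.29 ± 0.13, and under TMM scaling on the D. melanogaster counts it was the only member called there, as higher.

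Of the enzymes that process finished strands, Fen1 removes the flaps of lagging strand fragments, DNAlig1 joins them, tos encodes the exonuclease Exo1, and Top2 untangles the daughter DNA. Top2 fell after both DOM-A and TIP60 RNAi. It lay at 7765, 6933 and 6507 normalized counts in CTRL, at 3814, 4863 and 3567 after DOM-A RNAi and at 4971, 3269 and 4548 after TIP60 RNAi. The highest value of either knock-down was below the lowest of CTRL. The log2 fold-changes were −0.79 ± 0.17 and −0.73 ± 0.17, with adjusted p-values of 0.00313 and 0.00666 by edgeR. The TIP60 call of Top2 was lost in each of the 6 fits without a library.

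Fen1 fell after DOM-A RNAi, from 742, 756 and 662 normalized counts in CTRL to 526, 530 and 448 (−0.52 ± 0.11, edgeR adjusted p-value 0.00302). After TIP60 RNAi it was at 569, 495 and 549, also below all CTRL libraries (−0.42 ± 0.11), with an adjusted p-value of 0.0148 by edgeR. For tos the test was passed after TIP60 RNAi. It was at 491, 467 and 429 in CTRL and at 306, 267 and 289 after TIP60 RNAi (−0.68 ± 0.13, edgeR adjusted p-value 0.00243). After DOM-B RNAi tos had the lowest value of all members, −0.49 ± 0.13 (adjusted p-value 0.0272 by edgeR). DNAlig1 was not called in any comparison.

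CAF-1 is represented by its subunits Caf1-105 and Caf1-180. Caf1-105 fell after DOM-A and TIP60 RNAi. It was at 807, 799 and 729 normalized counts in CTRL, at 468, 627 and 361 after DOM-A RNAi and at 478, 377 and 431 after TIP60 RNAi. Again no library of these knock-downs reached CTRL. The log2 fold-changes were −0.70 ± 0.15 (edgeR, adjusted p-value 0.00318) and −0.85 ± 0.15 (edgeR, adjusted p-value 0.00121), and the TIP60 call was kept in all 14 other fits. Caf1-180 had −0.15 ± 0.14 after DOM-A RNAi and −0.41 ± 0.14 after TIP60 RNAi (adjusted p-value 0.0479 by edgeR).

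Summed over the 35 genes, the normalized count was 85094 ± 7819 in CTRL (SD, n = 3). With DOM-A depleted it was 70014 ± 7405, and with TIP60 depleted 63743 ± 5426. It was 93494 ± 13725 after DOM-B RNAi and 85191 ± 3188 after H2A.V RNAi. The TIP60 libraries, from 57543 to 67621, lay below the lowest CTRL library, 76455, while the highest DOM-A library was at 78546. By role, the summed level of nucleases, ligase and topoisomerase was at 62.7% ± 9.75 of the CTRL mean after DOM-A RNAi and at 63.7% ± 10.6 after TIP60 RNAi. That of RPA was at 108% ± 10.7 and 93.6% ± 18.6, and at 149% ± 17.5 after DOM-B RNAi. Such sums follow mostly the most abundant gene of a role. In CTRL, Top2 made up 7068 of 9354 normalized counts of its role, and RpA-70 8798 of 15508.5 for RPA. Within RPA, the mean of RPA2 was 3649 in CTRL and 2713 after DOM-A RNAi, and that of RpA-70 was 8798 and 11174.

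**Figure D4:**
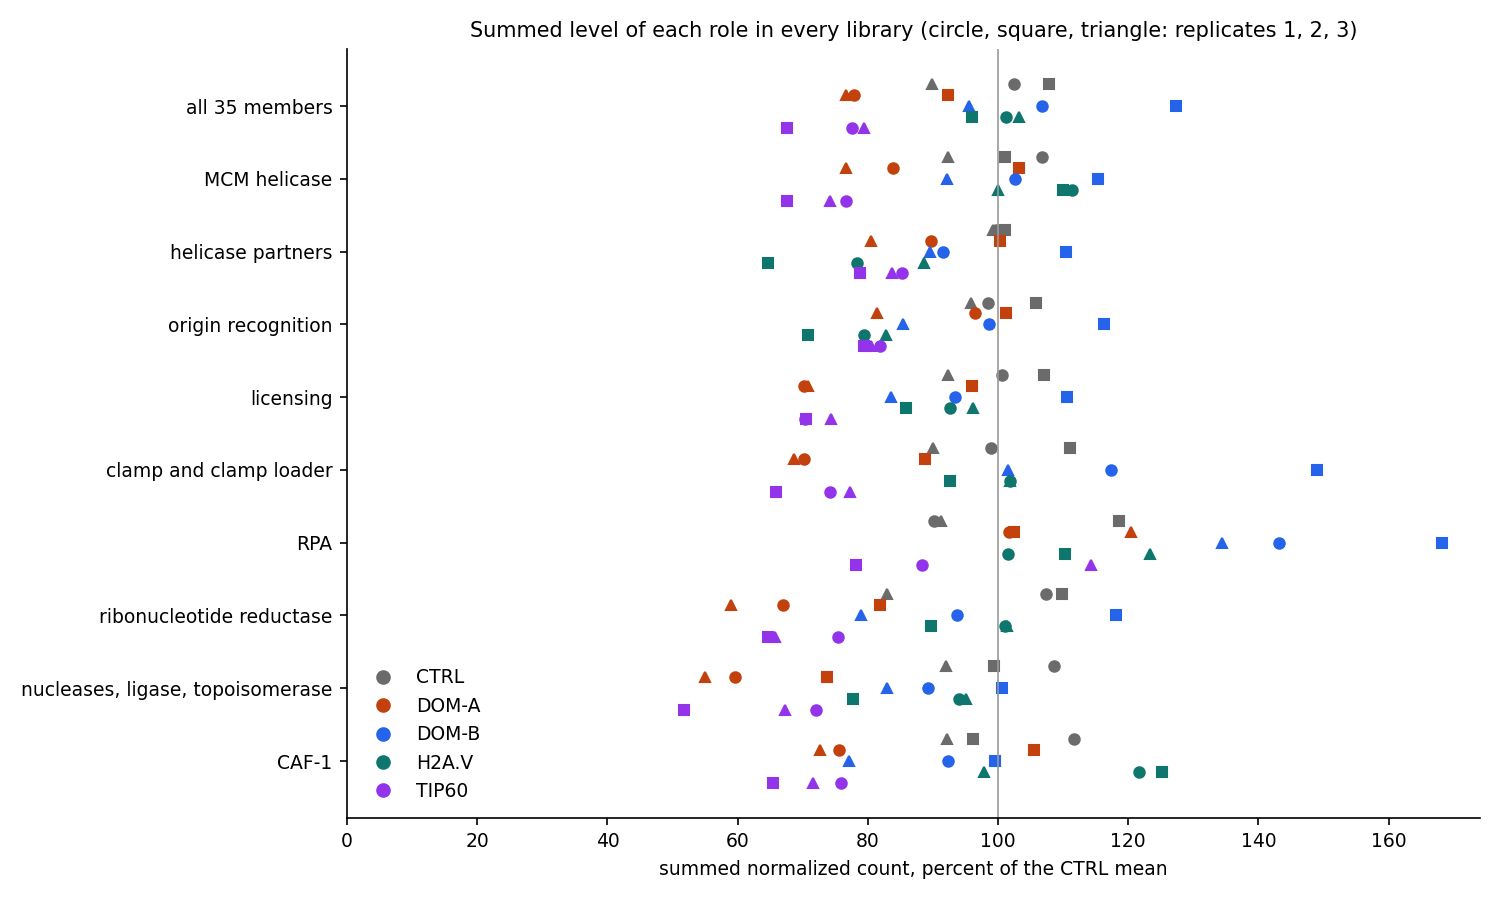
Summed normalized count of all 35 DNA replication genes and of each role in every library, as percent of the mean of the CTRL libraries (100, vertical line), with colors for groups and symbols for replicates. TIP60 libraries lie left of all CTRL libraries in every role but RPA, and the 3 DOM-B libraries lie right of all CTRL libraries for RPA.

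The comparison of DOM-A with DOM-B RNAi asks whether the isoforms differ. Its fold-changes set no CTRL library against either group, although CTRL libraries enter the fit. Of the 35 genes, 6 (17.1%) were lower after DOM-A than after DOM-B RNAi and 0 were higher, against 10.1% lower and 7.28% higher over all genes. At an unadjusted p-value under 0.05, 19 were lower and 1 higher, beside 21.8% and 18.8% of all genes. The median log2 fold-change was −0.29, and that of all genes −0.02. With total D. virilis counts as library sizes, 18 members were lower, where 18.8% of all genes were lower and their median was −0.26. The genes called were the RPA subunit RPA2, the clamp PCNA, the clamp loader subunit RfC4, the flap nuclease Fen1, Mcm3 and Cdc6.

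RPA2, RfC4 and Fen1 were called lower after DOM-A than after DOM-B RNAi in all 8 alternative settings and in all 6 fits that leave out a library. RfC4 was at 1470, 1870 and 1565 normalized counts after DOM-A RNAi and at 3253, 4399 and 2929 after DOM-B RNAi (−1.11 ± 0.20, edgeR adjusted p-value 0.000938). RPA2 was at 2433, 2870 and 2836 and at 5346, 6687 and 4852, respectively (−1.06 ± 0.15, edgeR adjusted p-value 0.000208). Fen1 was at 526, 530 and 448 and at 835, 848 and 718 (−0.68 ± 0.11, edgeR adjusted p-value 0.000621). For these genes the isoform groups were well separated. The CTRL mean lay between them for RPA2 (3649), RfC4 (2141) and Fen1 (720), and for Fen1 the CTRL and DOM-B libraries overlapped.

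PCNA was at 3487, 4626 and 3426 normalized counts after DOM-A RNAi and at 6038, 7853 and 4885 after DOM-B RNAi (−0.69 ± 0.14, edgeR adjusted p-value 0.00222). The groups did not overlap, and the call was kept in 7 of 8 alternative settings and in 2 of 6 fits without a library. The calls of Mcm3 (−0.52 ± 0.13) and Cdc6 (−0.59 ± 0.15) were near the threshold, with adjusted p-values of 0.00911 and 0.00999 by edgeR, and each was kept in 1 of 6 fits without a library. Sld5 (−0.73 ± 0.20) and RnrS (−0.63 ± 0.17) had the largest values among those not called. The count was 3 without DOM-A replicate 1, DOM-A replicate 3, DOM-B replicate 1 or DOM-B replicate 2.

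**Figure D5:**
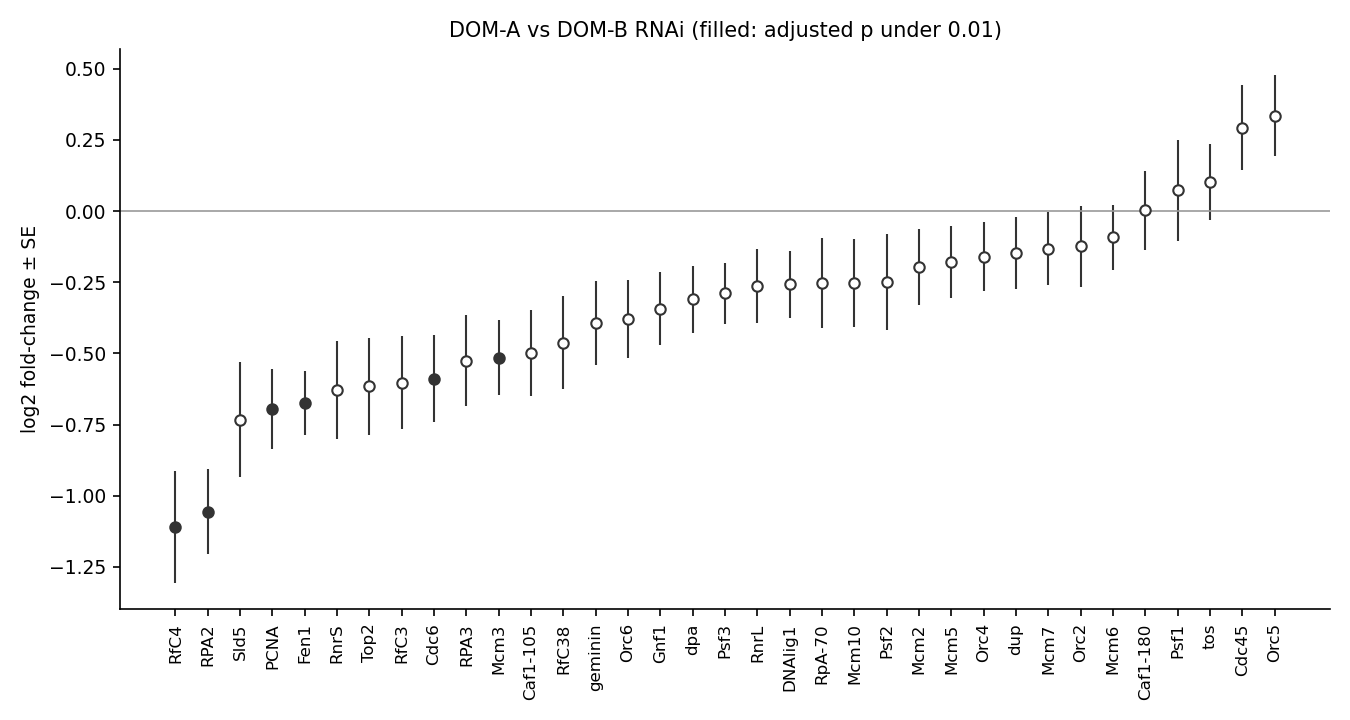
Log2 fold-change of DOM-A over DOM-B RNAi (points, with SE bars) for the 35 DNA replication genes in order of their value, with filled points for those with an adjusted p-value under 0.01. The 6 filled points range from −1.11 (RfC4) to −0.52 (Mcm3), and 30 of the 35 genes lie below 0.

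A further comparison, chosen after the data had been seen, set DOM-A against TIP60 RNAi. Of the 35 genes 0 were called by edgeR and 0 by DESeq2, and at an unadjusted p-value under 0.05 there were 5 higher after DOM-A RNAi and 0 lower, beside 8.46% and 4.59% of all genes. Few genes were called at all in this comparison, 0.0175% higher and 0% lower. Log2 fold-changes of the members ranged from −0.18 (Orc6) to 0.37, with a median of 0.15. Replicate 2 differed from the others, with a median log2 difference of 0.48 against 0.05 and −0.01 in replicates 1 and 3. Over all genes the median was 0.15 in replicate 2, and 0.01 and −0.04 in replicates 1 and 3. The comparison therefore does not show for any single member that DOM-A and TIP60 depletion had unequal effects, nor that they had equal ones.

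DOM-B, which places H2A.V into chromatin, was likewise compared with H2A.V RNAi after the data had been seen. Psf3 was the only member called (2.86% of 35), higher after DOM-B RNAi, against 10.2% higher and 0.797% lower over all genes. It was at 457, 474 and 402 normalized counts after DOM-B RNAi and at 310, 295 and 299 after H2A.V RNAi. The groups did not overlap and the log2 fold-change was 0.56 ± 0.11 (edgeR, adjusted p-value 0.00295), beside a median of 0.30 over all genes. Psf3 was no longer called without H2A.V replicate 1 or 2 or without DOM-B replicate 1 or 2, where the count was 0. Under TMM scaling on the D. melanogaster counts 1 member was called, as lower.

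Other genes of the replication pathway were counted as lists, to be read beside the shares of all genes called: 10.4% lower and 8.96% higher after DOM-A, 8.43% lower after TIP60, and 11.5% lower after H2A.V RNAi. Of 11 subunits of the replicative DNA polymerases and their partners, 2 were lower and 1 higher after DOM-A RNAi, 3 were lower after TIP60 RNAi, 2 were lower after H2A.V RNAi and 0 were called after DOM-B RNAi. Pol31, a subunit of polymerase delta, fell in the first 3 of these, with log2 fold-changes of −1.15 ± 0.16, −1.03 ± 0.16 and −0.70 ± 0.16 (edgeR, adjusted p-values 0.000156, 0.000547 and 0.00671). DNApol-epsilon58 was the gene higher after DOM-A RNAi (0.61 ± 0.15, edgeR adjusted p-value 0.00712).

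Among 4 further genes of deoxynucleotide supply, 2 fell after DOM-A and after TIP60 RNAi. dUTPase, which keeps dUTP out of DNA and makes the precursor of dTTP, had log2 fold-changes of −1.28 ± 0.14 and −1.04 ± 0.14 (edgeR, adjusted p-values 2.50e-05 and 0.000184). The deoxynucleoside kinase dnk had −0.92 ± 0.17 and −1.15 ± 0.17 (edgeR, adjusted p-values 0.00102 and 0.000319). After DOM-B RNAi none of the 4 was called by edgeR.

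A list of 14 cell cycle regulators pooled genes that promote and genes that restrain entry into S phase. Of these 14 regulators, 2 were lower after DOM-A RNAi (Rbf2 and CycA), 2 after TIP60 RNAi (dap and CycD) and 1 after H2A.V RNAi (E2f2). Of all genes, 10.4%, 8.43% and 11.5% were lower in these comparisons. Of 7 other initiation and fork factors, mus101 was lower after DOM-A and TIP60 RNAi (log2 fold-changes −0.51 ± 0.13 and −0.75 ± 0.13), Claspin after TIP60 and tim2 after H2A.V RNAi. Of 6 genes of the MuvB core and its Myb partners, which act on cell cycle promoters, lin-52 was lower after DOM-A and TIP60 RNAi (−0.99 ± 0.17 and −1.17 ± 0.17) and mip40 after H2A.V RNAi. None of these 27 genes was called higher in a comparison with CTRL. Of the 14 regulators, 12 were below 0 and 2 above 0 after DOM-A RNAi, and likewise after TIP60 RNAi. The regulator fzr, not called, was at 281 to 326 normalized counts in CTRL and at 418 to 540 after DOM-A RNAi.

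Markers of the blood cell character of Kc167 were counted as well. Of 9 such markers, 7 were higher after DOM-A RNAi and 6 after TIP60 RNAi, where 8.96% and 4.88% of all genes were higher, while 0 were called after DOM-B RNAi and 1 was higher and 1 lower after H2A.V RNAi. Their summed normalized counts ranged from 22596 to 28132 in CTRL, from 83123 to 96541 with DOM-A depleted and from 30455 to 93062 with TIP60 depleted. All 9 were detected in CTRL. After DOM-B RNAi their sum was between 44618 and 56725, also above CTRL, and after H2A.V RNAi between 17102 and 36436. The sum follows mostly the most abundant markers, and Hml made up 13757 of the mean of 25798 in CTRL. The marker crq went the other way, with means of 1451 in CTRL, 1146 after DOM-A and 1049 after TIP60 RNAi. After DOM-B RNAi 7 of the 9 markers were above 0 and 2 below. The part of these marker differences in the values of the replication genes was not tested.

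Of 11 markers of other cell types, 8 passed the filter, with summed normalized counts of 1398 to 1642 in CTRL, 806 to 980 after DOM-A, 2157 to 2449 after DOM-B, 1935 to 2633 after H2A.V and 680 to 1107 after TIP60 RNAi. The fat body and gut markers Lsp1alpha, Lsp2 and betaTry were at 0 reads in CTRL. After DOM-A RNAi vas was higher (log2 fold-change 2.09) and elav and bam lower (−1.69 and −1.59), and after TIP60 RNAi elav and bam were lower (−2.25 and −1.17). The germ line genes vas and nos were higher after DOM-B RNAi (4.36 and 1.79) and after H2A.V RNAi (3.22 and 2.36), each by edgeR at the same threshold, and vas had only 2 to 9 reads per CTRL library. The part of these markers in the results was not tested either.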

How the data were processed

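RNA-seq counts of 15 libraries (5 groups of 3 replicates) were analysed. Per the labels and methods, the authors mapped reads with STAR (version 2.5.3a) to dm6 and separately to D. virilis, and deposited raw read counts per gene. The deposited counts of the strand that held 96.7% to 97.3% of stranded reads were used. The replication genes and all lists were chosen with earlier results of these data known. Of 37 names, 32 matched the annotation by symbol, 2 by an older symbol (lat, RpA-70) and 2 by identifiers in the study's supplement (RPA2, RPA3). Positions come from the BDGP6.54 annotation, the dm6 assembly.

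Genes with at least 1 read in 6 libraries were kept (11424, and 8941 of D. virilis). Library sizes were the D. virilis median-of-ratios size factors. edgeR (version 4.0.16, R 4.3.3) fitted all 15 libraries with group and replicate number as terms, the design of the study's methods, followed by the quasi-likelihood test with Benjamini-Hochberg adjustment over all genes and a threshold of 0.01. The p-values compare a fold-change with the spread left between these samples after the group and replicate terms. Each SE was the absolute log2 fold-change divided by the square root of the F statistic of its test. The replicate numbers come from the labels, and same-numbered libraries deviated together (mean correlation 0.363 over 30 pairs, from −0.01 to 0.72, 6462 genes). The mean over 60 other pairs, −0.18, largely follows from this value, because deviations from a group mean sum to 0. Alternatives were DESeq2 (version 1.42.0), 3 other scalings, no replicate block, counts without regard to strand, 2 other filters and leaving out each library. Single-replicate differences used a pseudocount of 1. The comparisons of DOM-A with TIP60 and DOM-B with H2A.V were added after the data had been seen. The scripts were tested on simulated data. Any gene could be named, and library values are given for those called against CTRL in at least 1 comparison and for some uncalled ones, among them the 2 with the largest change in each of those comparisons. Promoter sequences were not analysed here, and 1 result of the further lists is not reported here.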

Additional observations from a re-analysis of the deposited data

Results flagged for a closer look

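Reads on the strand opposite to 2 DNA replication genes, which the comparisons do not use, rose after DOM-A RNAi above their level in CTRL. For Psf3 the mean went from 222 to 370 normalized counts, a log2 fold-change of 0.74 (edgeR, adjusted p-value 0.00166), and for Orc6 from 25.1 to 74.1, a log2 fold-change of 1.58 (edgeR, adjusted p-value 2.27e-05). In the annotation, CG17841 overlaps Psf3 over 831 nucleotides and Sting overlaps Orc6 over 55 nucleotides on that strand.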

How the results depend on the processing

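The number of DNA replication genes called after DOM-A RNAi was 8 in 7 of the 8 settings that keep all libraries, and after TIP60 RNAi it was 9 to 15 with the replicate block. Without the replicate block the counts were 6 for DOM-A, 6 for TIP60, 3 for DOM-A against DOM-B, 0 for H2A.V and 0 for DOM-B. For DOM-B (0) the count was 2 with TMM on the D. melanogaster counts (1 higher, 1 lower), 3 with total D. virilis counts, 4 with DESeq2 and 1 with no filter on low counts. For H2A.V (1) it was 0 with total D. virilis counts, without regard to strand or without the filter, 3 with DESeq2, 2 with at least 10 reads in every library, and 1 higher in place of 1 lower with TMM on the D. melanogaster counts. DOM-A against DOM-B (6) gave 18 with total D. virilis counts, where 18.8% of all genes were lower, and 11 with DESeq2. For most of these settings the share of all genes called is not given here. A larger count in such a setting is therefore not read as particular to the replication genes. DOM-B against H2A.V (1) gave 5 with DESeq2 and 2 without the filter or with at least 10 reads, and 1 lower in place of 1 higher with that TMM. DOM-A against TIP60 gave 0 throughout. Leaving out a library gave 0 to 9 for DOM-A, 0 to 1 for DOM-B, 0 to 4 for H2A.V, 2 to 9 for TIP60, 3 to 8 for DOM-A against DOM-B, and 0 to 4 for DOM-B against H2A.V. Those fits hold fewer libraries, and the cause of the changed counts was not tested. Over single genes in the 7 comparisons, 21 calls were lost and 54 gained in the 8 settings that keep all libraries. In the fits that leave out a library, 90 calls were lost and 12 gained. No called log2 fold-change reversed. The median of all genes moved by 0.24 (H2A.V, that TMM), and with total D. virilis counts by 0.20 (H2A.V), 0.15 (DOM-B), −0.15 (TIP60) and −0.24 (DOM-A against DOM-B). Depth bears most on Sld5, with 52 to 229 reads per library, and on Cdc6, with 81 to 253.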
